A study of Mus musculus with 30 samples.

Results

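The 8 genes described here encode transcription factors of the oligodendrocyte lineage and were followed through mouse brain tumours: Olig1, Olig2, Sox10, Sox8, Nkx2-2, Nkx6-2, Myrf and Zfp488. They were chosen by name, with earlier results of these data known, and made up 8 of the 24421 genes listed in the deposited tables. All 8 had reads in every library, and all 8 were among the 15824 genes tested, those reaching 1 RPM in 3 or more libraries. RPM is the usual depth-scaled read count, here the deposited normalised count divided by 1 constant, the same for all libraries.

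The study measured polyadenylated RNA of whole tissue from 28 cortical tumours labelled glioblastoma and from 2 samples of normal cortex, taken on postnatal day 70 and each sequenced as 1 library. The tumours carried mCherry, a fluorescent protein without receptor activity (3 libraries), EGFR wild-type, the unmutated epidermal growth factor receptor (3), or 1 of 6 receptor forms with a single amino acid change: A289I (5), A289V (4), R108G (3), R108K (4), R222C (3) and T263P (3). The labels give neither the lesion that started the tumours, which the mCherry tumours would share, nor the mouse strain, nor the vector or cells that carried the receptor. They do not say which libraries came from separate animals or litters, so p-values measure the spread between these samples.

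Oligodendrocytes are the cells that wrap axons of the brain in myelin, and they arise from dividing precursors that persist in adult cortex. The basic helix-loop-helix factors Olig1 and Olig2 and the SoxE factors Sox10 and Sox8 hold the lineage from precursor to mature cell. Nkx2-2, Nkx6-2, Zfp488 and above all Myrf act around the step from precursor to myelin-forming cell, and many gliomas keep the precursor factors switched on.

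The 250 bases before the RefSeq start of the gene, read 5′ to 3′ on the gene's strand in GRCm38.p6, are printed for 4 of the 5 members matched in the promoter table, Olig2, Nkx2-2 and Zfp488, which were all higher in tumours than in cortex, and Nkx6-2, which was not. Capitals mark matches to the E-box CANNTG, the letters that basic helix-loop-helix factors such as Olig2 recognise, and to AACAAT, a Sox-type motif, on either strand. By GENCODE positions, the Nkx2-2 window lies inside the gene, which spans 147177546 to 147194243. The Olig2 window runs into that gene, which starts at 91225457.
Olig2, chr16:91225300-91225549, plus strand: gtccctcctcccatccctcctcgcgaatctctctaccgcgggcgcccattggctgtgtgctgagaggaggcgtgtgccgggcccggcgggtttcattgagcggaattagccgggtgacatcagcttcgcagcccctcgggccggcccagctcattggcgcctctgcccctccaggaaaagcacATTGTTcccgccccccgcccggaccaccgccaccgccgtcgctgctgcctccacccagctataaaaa
Nkx2-2, chr2:147186403-147186652, minus strand: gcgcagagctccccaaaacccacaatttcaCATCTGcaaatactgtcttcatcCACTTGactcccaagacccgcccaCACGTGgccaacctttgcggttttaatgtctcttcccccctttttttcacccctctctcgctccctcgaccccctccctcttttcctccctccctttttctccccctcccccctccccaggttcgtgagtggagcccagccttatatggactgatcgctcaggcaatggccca
Zfp488, chr14:33978765-33979014, minus strand: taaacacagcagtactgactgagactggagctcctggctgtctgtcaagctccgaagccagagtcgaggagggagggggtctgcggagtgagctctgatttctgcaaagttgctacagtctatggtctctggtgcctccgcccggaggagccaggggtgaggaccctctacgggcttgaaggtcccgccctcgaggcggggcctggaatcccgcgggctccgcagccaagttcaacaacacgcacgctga
Nkx6-2, chr7:139582798-139583047, minus strand: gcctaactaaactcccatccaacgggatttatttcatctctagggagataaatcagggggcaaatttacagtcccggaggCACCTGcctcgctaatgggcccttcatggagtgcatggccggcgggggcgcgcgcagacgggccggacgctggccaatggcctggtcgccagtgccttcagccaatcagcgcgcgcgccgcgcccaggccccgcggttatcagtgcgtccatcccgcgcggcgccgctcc
The Nkx2-2 window held 3 E-boxes and that of Nkx6-2 held 1, as did that of Sox8, which was searched as well, while the Olig2 and Zfp488 windows held 0. An E-box stood in 66.2% of the 32851 windows of the table, so its presence sets no member apart. The Olig2 window held 1 AACAAT match, on the reverse strand as ATTGTT, a motif found in 9.42% of the windows. A further Sox-type motif, ACAAAG, was in none of the 5 windows and in 16.5% of all. These matches describe the letters only, and the windows of the 3 genes that were higher together shared none of the motifs searched.

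Depth was 2784129 to 24475215 reads per library, so 1 read was worth 0.0387 to 0.383 RPM, and a member had 13 to 25693 reads in a library. The library numbers in the sample titles fall into ranges below 20, from 20 to 37 and above 37. All A289I and R108G libraries are above 37 and all cortex, R222C and T263P libraries are from 20 to 37. The EGFR wild-type, A289V and R108K libraries lie below 20 or from 20 to 37, so none shares a range with A289I or R108G. What these numbers stand for is not stated. A289V libraries 1 and 2 stood apart in that the mean log2(RPM + 1) of the neuron list was 8.63 and 9.03 there, against 3.16 to 7.74 in the other 26 tumours and 9.23 and 9.26 in cortex. The library labelled R108G replicate 1 had 17.5 RPM of Egfr, the receptor gene as the tables list it, below all 3 mCherry tumours (22.1 to 35.4 RPM), and was the only receptor library not above the highest of them. In bulk tissue, fewer cells of a type and less RNA per cell cannot be told apart.

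Normal cortex held the marks of cortex, with the 18 neuron genes summing to 18137 and 18306 RPM, and 621.9 to 14497 RPM in the tumours. The precursor markers Pdgfra and Cspg4 were 65.7 to 69.3 and 27.02 to 28.2 RPM in cortex, and 211 to 1574 and 85.3 to 718 RPM in the tumours. Of the 13 precursor genes listed, Neu4, Gpr17 and Bcan did not separate tumours from cortex, and the rest did. Their lowest tumours had 1.59, 33.1 and 172 RPM, against at least 15.3, 88.5 and 348 RPM in cortex. Sox10 also serves the Schwann cells and melanocytes of the periphery. Of the 12 genes of that list, the melanocyte enzyme Tyr was at 0 RPM in cortex and at most 0.197 RPM in a tumour. The list summed to 18.2 and 18.5 RPM in cortex and to 21.4 to 243 RPM in the tumours; its part in the Sox10 level was not tested.

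The exons of 4 members overlap another gene on the opposite strand. The files do not say whether reads were counted by strand, although the library kit was stranded. Sox8 shares 329 of its 3118 exon bases with the antisense gene 2810468N07Rik (up to 136 RPM in a tumour), Nkx6-2 shares 246 of 1907 with Inpp5a (up to 60.4 RPM), and Nkx2-2 shares 278 of 2875 with Nkx2-2os (up to 2.07 RPM). Olig1 shares 157 of 2162 with Gm15966, a gene not listed in the tables. Without strand, reads of such partners cannot be told apart, so values of Nkx6-2 and Sox8 carry that uncertainty.

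**Figure D1:**
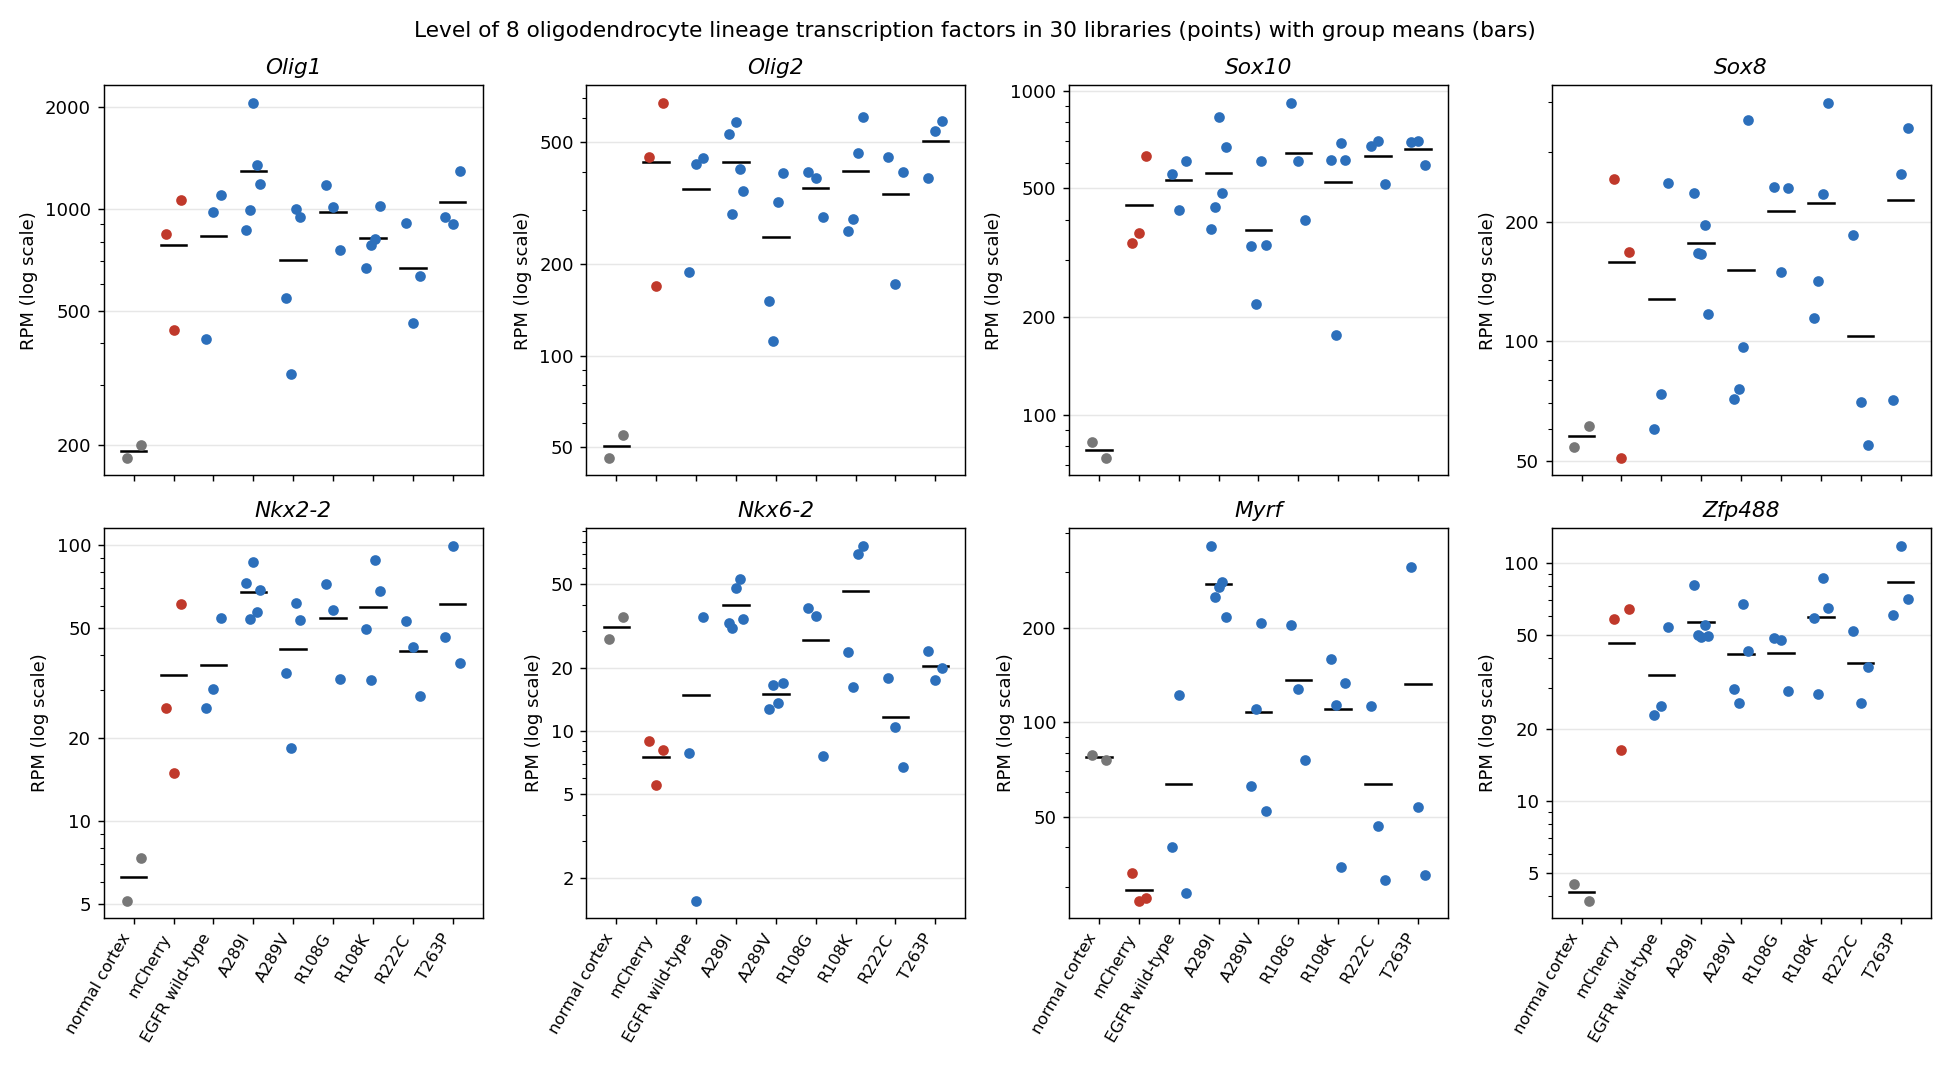
Level of each of the 8 genes in RPM on a log axis (vertical) in each of the 9 groups (horizontal). Points are libraries, grey for normal cortex, red for mCherry and blue for receptor tumours, and bars are group means; every tumour lies above both cortex libraries for Olig1, Olig2, Sox10, Nkx2-2 and Zfp488, and not for Sox8, Nkx6-2 or Myrf.

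Set per kilobase of exon, the mean over the 28 tumours was highest for Olig1 (421 RPM per kb), followed by Sox10 (177), Olig2 (151) and Sox8 (55.7). Nkx2-2 (17.8), Myrf (14.7), Nkx6-2 (12.9) and Zfp488 (11.8) followed, and Sox8 was more than 3 times as high as any of them. In cortex Olig1 again led (88.7 RPM per kb), but Nkx6-2 (16.4) and Myrf (9.04) stood above Nkx2-2 (2.18) and Zfp488 (0.964). The plot of levels by group shows 5 genes that separate every tumour from cortex, and Myrf and Nkx6-2, which spread most among the tumours. How many of all tested genes separate every tumour from the 2 cortex libraries was not computed, so the count of 5 is a description.

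Olig1 and Olig2 are neighbours on chromosome 16 (mm10, 91269772 to 91271933 and 91225457 to 91228677, both on the plus strand), 41.1 kb apart. Olig2 specifies the lineage and keeps precursors dividing, and Olig1 takes part in maturation and myelin repair. Olig2 was 46.3 and 55.0 RPM in cortex, 446, 169 and 674 RPM in the mCherry tumours, 188, 425 and 444 RPM with EGFR wild-type and 534, 289.8, 581, 409 and 347 RPM with A289I. It was 151, 112, 319 and 395 RPM with A289V, 399, 382 and 285 with R108G, 257, 280.4, 461 and 606 with R108K, 446, 171 and 400.3 with R222C, and 383, 543 and 586 with T263P. Every tumour group stood clear of cortex, and all 8 tumour groups overlapped one another's neighbours in the order of means, from T263P (504 ± 107 RPM, SD, n = 3) down to A289V (244 ± 135, n = 4). The 2 lowest tumours, A289V libraries 1 and 2, were the pair with the high neuron list.

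Olig1 was 183 and 200.3 RPM in cortex and 844, 437 and 1064 RPM in the mCherry tumours. It was 412, 979 and 1098 RPM with EGFR wild-type, 869, 995, 2063, 1351 and 1187 RPM with A289I, and 543, 323, 1002 and 949 RPM with A289V. The other groups ran from 459 to 1292 RPM. The mean was highest with A289I (1293 ± 468 RPM, SD, n = 5) and lowest among the tumours with R222C (668 ± 228, n = 3), and no tumour group was clear of the next in that order.

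Sox10 (chromosome 15, 79154908 to 79165240) sustains the lineage and opens myelin genes together with Olig2 and Myrf. It was 82.4 and 73.8 RPM in cortex, 338, 365 and 629.8 RPM in the mCherry tumours, 555, 428 and 608 RPM with EGFR wild-type, and 376, 438, 828.7, 483 and 672 RPM with A289I. Of the members it varied least among the 28 tumours, with a coefficient of variation of 33.1% and a 5.19-fold range. Its lowest tumour was R108K library 2, at 177 RPM against 613, 691 and 613 RPM in the other R108K tumours.

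Sox8 (chromosome 17, 25565892 to 25570686), a SoxE relative that partly covers for Sox10, was the member that separated tumours from cortex least among those that tended higher. It was 54.3 and 61.3 RPM in cortex and 256, 50.9 and 168 RPM in the mCherry tumours, 1 of which lay below both cortex values. With EGFR wild-type it was 60.2, 73.8 and 250.4 RPM, and with R222C 185, 70.3 and 54.9 RPM. The tumours ran from 50.9 to 399 RPM with a median of 167 RPM, so high and low tumours stood side by side within the same group.

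Nkx2-2 (chromosome 2, 147177546 to 147194243) is a homeodomain factor that times the exit of precursors into differentiation. It was 5.16 and 7.36 RPM in cortex and 25.8, 14.98 and 61.0 RPM in the mCherry tumours. With A289I it was 73.1, 53.9, 86.7, 57.1 and 68.9 RPM, the tightest of the tumour groups with a coefficient of variation of 19.4%. Over all 28 tumours it was 14.98 to 99.8 RPM, a median of 53.5 RPM, and no tumour fell to the cortex level.

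Zfp488 (chromosome 14, 33967070 to 33978764), a zinc-finger protein that works with Olig2 in oligodendrocyte differentiation, was nearly silent in cortex at 4.47 and 3.82 RPM. The mCherry tumours had 58.2, 16.4 and 64.2 RPM and the T263P tumours 60.4, 119 and 70.5 RPM, the highest mean of any group (83.2 ± 31.2 RPM, SD, n = 3). The lowest tumour, mCherry library 2, was still more than 3 times the higher cortex value.

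Myrf (chromosome 19, 10208272 to 10240748) encodes a membrane-bound factor that cleaves itself and then turns on myelin genes in differentiating oligodendrocytes. It was 78.9 and 75.8 RPM in cortex and 33.3, 27.1 and 27.6 RPM in the mCherry tumours, all below cortex. With EGFR wild-type it was 40.2, 123 and 28.6 RPM, and with A289I 365, 251, 270.1, 280.2 and 216 RPM. The 5 A289I tumours were above every other tumour except T263P library 1 (311.4 RPM). With A289V it was 62.8, 110.3, 207 and 52.2 RPM, with R108G 204, 128 and 75.7 RPM, and with R108K 159, 114, 34.8 and 134 RPM. R222C tumours had 113, 46.9 and 31.5 RPM and T263P tumours 311.4, 54.0 and 32.7 RPM, a 13.5-fold range over all tumours. Of the steps in the order of group means, the one from A289I (276 ± 55.4 RPM, SD, n = 5) to R108G (136 ± 64.7, n = 3) had ranges that did not overlap.

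Nkx6-2 (chromosome 7, 139579376 to 139582797), a homeodomain factor of myelin-forming oligodendrocytes that serves the contacts between myelin and axon, had the widest range among tumours, 49.1-fold. It was 27.3 and 35.1 RPM in cortex, 8.99, 5.54 and 8.11 RPM in the mCherry tumours and 7.82, 1.56 and 35.001 RPM with EGFR wild-type. The lowest value, EGFR wild-type library 2, rested on the fewest reads of any member in any library, 13. A289I tumours had 32.8, 31.05, 48.2, 53.3 and 34.05 RPM and R108K tumours 23.8, 16.2, 69.7 and 76.6 RPM. The A289V tumours lay close together at 12.8, 16.5, 13.7 and 16.9 RPM, the R108G tumours had 38.7, 35.4 and 7.62 RPM, the R222C tumours 17.8, 10.4 and 6.75 RPM and the T263P tumours 24.1, 17.5 and 19.9 RPM. Tumours with cortex-like levels and tumours far below them thus occurred within the EGFR wild-type and R108G groups.

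Setting the mCherry tumours against normal cortex asks how a tumour without added receptor differs from its tissue. Of the members 5 were higher in the tumours, Nkx6-2 was lower, and Sox8 and Myrf did not pass the test. On the log2(RPM + 1) scale, in limma's fit of all genes with Benjamini-Hochberg adjustment, the difference was 2.98 ± 0.51 for Zfp488 (SE, adjusted p = 0.000106), 2.85 ± 0.55 for Olig2 (adjusted p = 0.000342), 2.44 ± 0.47 for Sox10 (0.000314), 2.06 ± 0.53 for Nkx2-2 (0.00403) and 1.93 ± 0.46 for Olig1 (0.00207). These 5 were higher in 3 of 3 tumours than in either cortex library, a separation not counted over all genes. The 6 calls among 8 members stand beside a background of 38.3% of all 15824 tested genes that passed in this comparison, and the median difference was 1.99 over the members and 0.01 over all genes.

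Nkx6-2 fell by 1.93 ± 0.74 on the log2 scale (adjusted p = 0.0419, limma), with all 3 tumours below both cortex libraries. The limma call was lost whichever 1 of the 5 libraries was left out (adjusted p = 0.0520 to 0.193), and with a term for the 3 ranges of library numbers the difference was -0.33 (0.793). Myrf, at -1.38 ± 0.75 (adjusted p = 0.151, limma), also had all tumours below cortex, and it passed in 3 of its 16 alternatives: with only these groups fitted (0.00959), with library weights (0.0295) and with the neuron mean as a covariate (0.0486). Sox8 was 1.16 ± 0.75 higher (adjusted p = 0.228, limma) with overlapping groups.

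The mean of the 7 receptor groups also stood above cortex for these 5 members: 3.20 ± 0.41 for Zfp488 (adjusted p = 1.69e-06), 2.77 ± 0.43 for Nkx2-2 (1.64e-05), 2.76 ± 0.44 for Olig2 (2.47e-05), 2.74 ± 0.37 for Sox10 (3.67e-06) and 2.14 ± 0.37 for Olig1 (5.49e-05) in limma's fit. Here 47.2% of all tested genes passed, and both comparisons share the same 2 cortex libraries. Sox8 (1.33 ± 0.60, limma adjusted p = 0.0727) missed the threshold, as did Myrf (0.30 ± 0.60, 0.704) and Nkx6-2 (-0.67 ± 0.60, 0.373), whose receptor tumours overlapped cortex. The neuron list moved with both comparisons, with 17 of 18 genes lower in mCherry tumours and 18 of 18 in receptor tumours. With its mean as a covariate in limma, Olig2, Sox10 and Zfp488 kept passing in the mCherry comparison, while Olig1 (1.54, adjusted p = 0.0849), Nkx2-2 (1.53, 0.139) and Nkx6-2 (-1.66, 0.276) did not, and Myrf passed as lower (-2.66, 0.0486). Leaving out cortex library 1 also ended the limma call of Nkx2-2 there (adjusted p = 0.0560). The mCherry libraries lie below 20 and above 37 and both cortex libraries from 20 to 37, so no comparison within a range could be made for this pair.

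**Figure D2:**
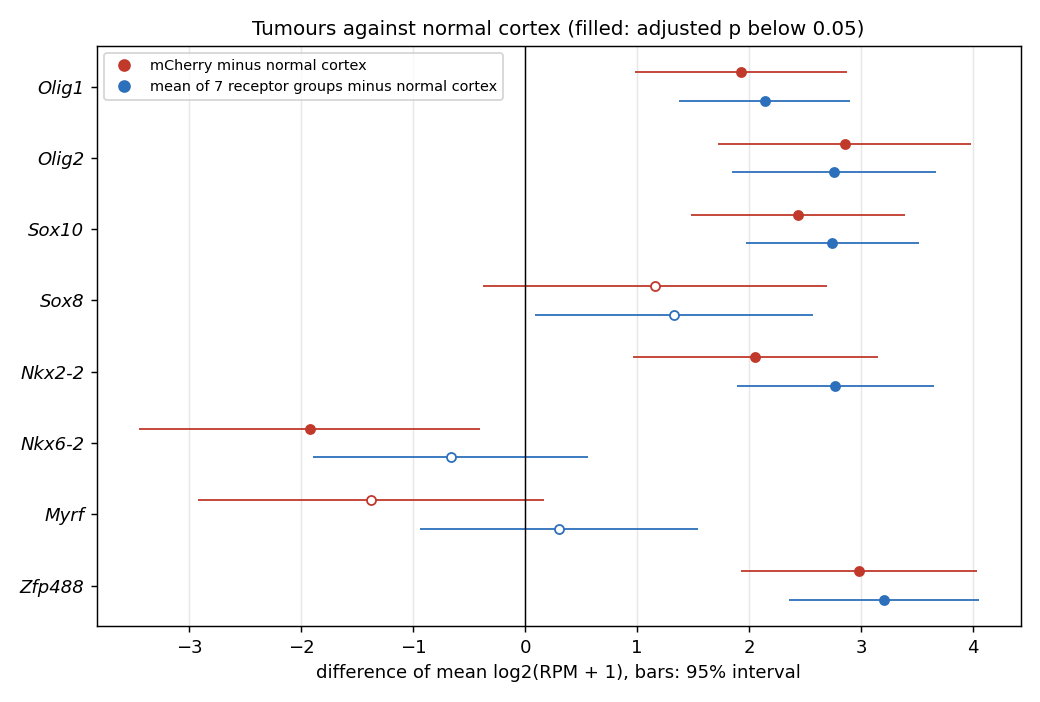
Difference of mean log2(RPM + 1) from normal cortex (horizontal) for each of the 8 genes (vertical), for mCherry tumours in red and for the mean of the 7 receptor groups in blue, with 95% intervals from the limma fit as bars; filled points have an adjusted p below 0.05. Olig1, Olig2, Sox10, Nkx2-2 and Zfp488 lie between 1.93 and 3.20, and Nkx6-2 is filled on the low side in mCherry tumours alone.

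The genes around these factors were read from lists. Of the 13 precursor genes, 10 were higher and 1 was lower in mCherry tumours than in cortex (median difference 2.35, against 0.01 over all genes), led by the matrix proteoglycan Vcan (4.48 ± 0.70), the AMPA receptor auxiliary subunit Cacng4 (2.56 ± 0.43) and the protocadherin Pcdh15 (2.81 ± 0.53). Of the 16 myelin genes, 0 were higher and 11 were lower (median -3.27), among them Mal (-4.62 ± 0.79), a lipid-raft protein of myelin, and Opalin (-4.77 ± 0.93). The 10 genes of newly formed oligodendrocytes gave 2 higher, Frmd4a (1.69 ± 0.30) and the kinase Fyn (1.05 ± 0.42), and 1 lower, Tmem163 (-2.43 ± 0.75). The remaining 5 myelin genes did not pass, and the median of the newly formed list was 0.40.

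The E-proteins, the partners that Olig1 and Olig2 need to bind DNA, gave 2 of 3 higher in mCherry tumours: Tcf12 (2.91 ± 0.42) and Tcf3 (1.96 ± 0.33). Of the 11 factors that hold back oligodendrocyte differentiation, 3 were higher and 1 was lower, with Sox6 (3.36 ± 0.41), Sox2 (1.85 ± 0.35) and Id3 (1.51 ± 0.37) among those higher and a median of -0.24. Of the 16 tested among other regulators of the lineage, 6 were higher and 0 lower, led by the chromatin remodeller Chd7 (3.82 ± 0.46), the deacetylase Hdac1 (2.28 ± 0.32) and Myt1 (3.28 ± 0.50), a zinc-finger factor of precursors. All 10 cell cycle genes were higher (median 5.24), with Top2a at 6.76 ± 0.54. Of the other cell types, 4 of 10 astrocyte genes were lower and 0 higher, 3 of 8 microglia and macrophage genes were higher and 0 lower, and 1 of 7 endothelial and pericyte genes was lower. The shares passing among the opposing factors, the other regulators, the astrocyte genes and the microglia genes are near the 38.3% of all tested genes that passed. In receptor tumours 12 of 13 precursor genes were higher than in cortex and 0 lower (median 2.92, against 0.03 over all genes), and 9 of 16 myelin genes were lower and 0 higher (median -2.05), where 47.2% of all tested genes passed and 24.3% passed as lower. These lists were chosen with earlier results of the data known, and their counts are descriptions.

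The receptor forms were then compared with mCherry tumours to ask what adding a receptor changed. Myrf passed in A289I tumours, and no other member passed in any of the 7 single comparisons. Myrf was 3.18 ± 0.60 higher with A289I on the log2 scale (95% interval 1.94 to 4.41, adjusted p = 0.0233, limma), a 9.05-fold difference. All 5 A289I tumours (216 to 365 RPM) exceeded all 3 mCherry tumours (27.1 to 33.3 RPM). In this comparison 0.607% of all tested genes passed, 83 higher and 13 lower.

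Over 20 alternatives the Myrf difference was 3.07 to 3.29 and the adjusted p 6.88e-05 to 0.214. Myrf missed the threshold in edgeR on the recovered reads (adjusted p = 0.0531) and with terms for 2 or 3 ranges of library numbers (0.214 and 0.186), and it was lost without mCherry library 2 or 3 or A289I library 2 or 4 (up to 0.0924). Within the range above 37 it was 3.26 ± 0.45 higher (limma adjusted p = 0.0206), but that rests on 1 mCherry library, whose spread is taken from the other groups. Nkx6-2 showed the next difference with A289I, 2.25 ± 0.59 (limma adjusted p = 0.0858), again without overlap: 31.05 to 53.3 RPM against 5.54 to 8.99 RPM. Nkx6-2 passed in DESeq2 (adjusted p = 0.00652), with library weights (0.0361) and with only these groups fitted (0.00870).

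The other 6 members in A289I tumours gave differences of 0.17 ± 0.44 for Olig2, 0.33 ± 0.37 for Sox10, 0.40 ± 0.60 for Sox8, 0.48 ± 0.41 for Zfp488, 0.75 ± 0.37 for Olig1 and 1.19 ± 0.43 for Nkx2-2, with adjusted p of 0.247 to 0.927 in limma's fit. The 95% interval for Olig2 was -0.73 to 1.08. Within the range above 37 the Nkx2-2 difference was 0.13. The median difference was 0.62 over the members and 0.00 over all genes.

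Myelin genes were higher beside Myrf in A289I tumours: 7 of 16 passed and 0 were lower, with a median difference of 2.31. Mag, an adhesion protein of the inner myelin layer, was 4.23 ± 0.76 higher (adjusted p = 0.0225), Mog, a protein of the outer layer, 3.58 ± 0.71 (0.0260), and Ugt8a, which makes the myelin lipid galactosylceramide, 2.27 ± 0.49 (0.0357, limma). Of the 13 precursor genes 3 were higher and 0 lower: Neu4 (4.31 ± 0.44), Tnr (2.13 ± 0.42) and Gpr17 (2.56 ± 0.57), the last a receptor of cells that have committed to differentiate. Of the 10 genes of newly formed oligodendrocytes, Tmem163 (3.38 ± 0.60) and Itpr2 (1.81 ± 0.41) were higher. The E-proteins, the opposing factors and the other regulators gave 0 passing genes in limma's fit, with Tcf3 at -0.76 ± 0.27, Id3 at -0.50 ± 0.29 and Hdac2 at -0.96 ± 0.27. Over all tested genes the count passing was 96 in limma, 1 in edgeR, 350 in DESeq2 and 16 once 2 or 3 ranges of library numbers were fitted, so at most 1 of these list calls holds in edgeR.

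Markers of other cells in this comparison were 0 of 18 neuron genes, whose sum was 976 to 5900 RPM with A289I and 1562 to 4504 RPM with mCherry, 0 of 8 microglia and macrophage genes, 0 of 7 endothelial and pericyte genes, 1 of 10 astrocyte genes (Aldoc, 1.42 ± 0.30) and 1 of 10 tested Schwann cell and melanocyte genes (Dct, 3.75 ± 0.81). Myelin genes summed to 6424 to 14673 RPM with A289I, 1149 to 2537 RPM with mCherry and 13436 to 13819 RPM in cortex. Myrf was above both cortex libraries in all 5 A289I tumours. What normal cortex within the A289I tumours added to their Myrf and myelin levels was not tested. Egfr as the tables list it, with the species of the added receptor not given in the labels, was 388 to 703 RPM in these tumours and 22.1 to 35.4 RPM with mCherry. Its correlation with Myrf over the tumours is given among the other observations, and its part in the A289I difference was not tested.

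**Figure D3:**
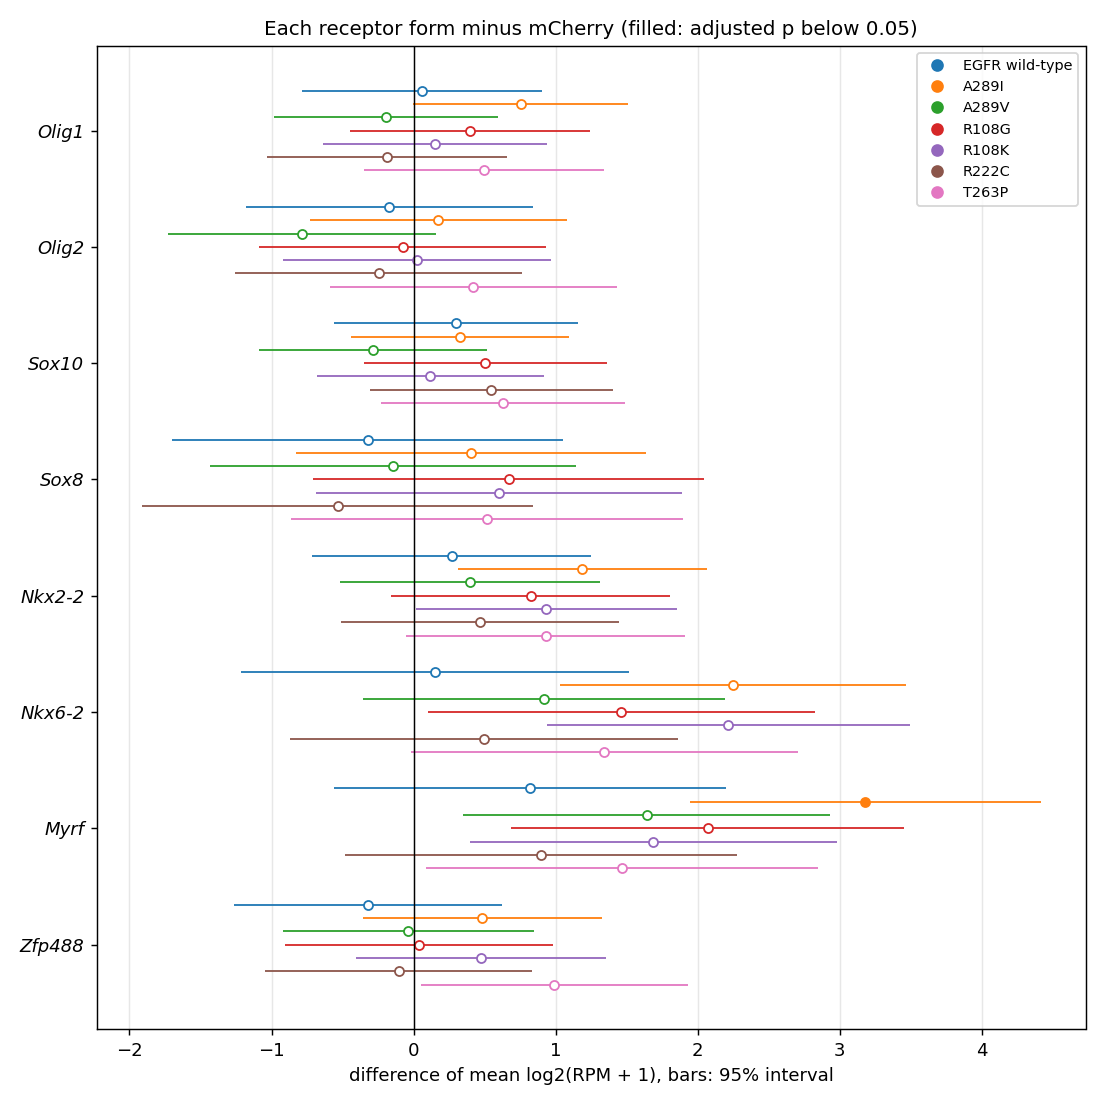
Difference of mean log2(RPM + 1) of each receptor group from mCherry tumours (horizontal) for each of the 8 genes (vertical), in 7 colours by receptor form, with 95% intervals from the limma fit as bars; filled points have an adjusted p below 0.05. Myrf with A289I, at 3.18, is the single filled point, and all 7 Myrf and Nkx6-2 values lie above 0.

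For the remaining forms, 0 of 8 members passed against mCherry in limma's fit, beside 0% of all tested genes for EGFR wild-type, 4.91% for A289V, 0.0379% for R108G, 0.0695% for R108K, 0% for R222C and 0.00632% for T263P. In edgeR 0 of 8 passed as well. At an unadjusted limma p below 0.05, the members numbered 0 for EGFR wild-type, 1 for A289V (Myrf), 2 for R108G (Myrf and Nkx6-2), 3 for R108K (Myrf, Nkx6-2 and Nkx2-2), 0 for R222C and 2 for T263P (Myrf and Zfp488). That threshold was met by 428, 3845, 1330, 1581, 1124 and 878 of all tested genes, in the same order. Myrf was 0.82 ± 0.67 with EGFR wild-type, 1.64 ± 0.63 with A289V, 2.07 ± 0.67 with R108G, 1.69 ± 0.63 with R108K, 0.90 ± 0.67 with R222C and 1.46 ± 0.67 with T263P. All 6 differences were positive, but they share the same 3 mCherry libraries. Nkx6-2 likewise lay between 0.15 ± 0.66 with EGFR wild-type and 2.21 ± 0.62 with R108K, whose groups did not overlap.

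In A289V tumours 4 of 16 myelin genes were higher than in mCherry tumours and 0 lower (median 2.04, against 0.00 over all genes), with Mag at 3.22 ± 0.80, Mal at 2.48 ± 0.66 and Mog at 2.79 ± 0.74, and 4 of 18 neuron genes were higher as well (median 2.07), summing to 4326 to 14497 RPM. Their part in the myelin counts was not tested. Of the partners and regulators, Tcf3 (-1.12 ± 0.28), Tcf12 (-1.25 ± 0.35), Id3 (-1.16 ± 0.31), Hdac1 (-1.31 ± 0.27) and Chd7 (-1.67 ± 0.38) were lower with A289V. These calls rest on the limma fit of all 30 libraries: 777 of all tested genes passed there, fewer in edgeR, 3 with only the groups compared, 2 once 2 ranges of library numbers were fitted, and 1 with the neuron mean as a covariate or without A289V libraries 1 and 2.

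Without the library labelled R108G replicate 1, whose Egfr was low, Myrf was 1.72 ± 0.75 and Nkx6-2 was 1.07 ± 0.73 higher with R108G than with mCherry (limma adjusted p = 0.447 and 0.654).

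DESeq2 on the recovered reads passed Myrf with A289V (1.88, adjusted p = 0.0313), beside 1729 of all genes, and Nkx6-2 with R108K (2.63, 0.00743), beside 205. For the mean of the 7 receptor groups against mCherry, limma passed 0 members beside 0.0379% of all genes, and edgeR passed 0 beside 41 genes in all. There were 2 members under an unadjusted limma p of 0.05, beside 1058 of all tested genes. DESeq2 passed Myrf alone (1.95, adjusted p = 0.0210), beside 102 of all genes. In limma's fit that difference was 1.68 ± 0.50 for Myrf (adjusted p = 0.371) and 1.26 ± 0.50 for Nkx6-2 (0.610). For Olig2 it was -0.10 ± 0.37 and for Sox8 0.17 ± 0.50, with intervals of -0.85 to 0.66 and -0.86 to 1.201.

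The variants were also set against EGFR wild-type, to ask what a mutation adds to the receptor. In limma's fit 0 of 8 members passed for the mean of the 6 variants and for each variant alone, beside 0% of all tested genes for the mean, 0.335% for A289I, 13.7% for A289V, and 0% each for R108G, R108K, R222C and T263P. The A289V share, 2160 genes, came to 1 gene without A289V libraries 1 and 2 and to 0 with the neuron mean as a covariate. In edgeR 0 members passed in these comparisons. Unadjusted limma p below 0.05 was met by 1 member for the mean of the variants, 3 for A289I, 0 for A289V, 0 for R108G, 1 for R108K, 0 for R222C and 1 for T263P. Of all tested genes, 1238, 2020, 4689, 1347, 861, 796 and 622 met that threshold, in the same order. Myrf with A289I came nearest, at 2.36 ± 0.60 (adjusted p = 0.0787), with 216 to 365 RPM against 28.6 to 123 RPM, and it passed in DESeq2 (2.12, 0.0256). It passed in 2 of 19 alternatives in limma, edgeR or DESeq2, whose adjusted p ran from 0.0202 to 0.757. No range of library numbers holds both A289I and EGFR wild-type, so form and range cannot be told apart there. The wild-type tumours differed widely in Nkx6-2: without EGFR wild-type library 3, the tumour with 35.001 RPM, Nkx6-2 passed in limma for the mean of the variants (2.27, adjusted p = 0.0471) and for A289I (3.07, 0.0172).

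The last pairwise comparisons held the residue constant and changed the amino acid put in its place. In neither pair do the forms share a range of library numbers. A289I against A289V gave 0 passing members in limma, beside 0% of all genes, 0 in edgeR and 0 in DESeq2, which called 196 of all genes. An unadjusted limma p below 0.05 was met by 4 members, beside 2872 of all tested genes. The 4 members were Myrf (1.54 ± 0.55), Nkx6-2 (1.33 ± 0.54), Olig2 (0.96 ± 0.40) and Olig1 (0.95 ± 0.34), with limma adjusted p of 0.144 to 0.204. Without the 2 A289V tumours with the high neuron list, the Olig1 difference was 0.34 and that of Olig2 was 0.23, while Myrf was 1.38 and Nkx6-2 was 1.30, and a term for 2 ranges of library numbers turned Olig2 to -0.33. R108G against R108K also gave 0 passing members in limma, beside 0% of all genes, 0 in edgeR and 0 in DESeq2, which called 107 of all genes. An unadjusted limma p below 0.05 was met by 0 members, beside 1569 of all tested genes. The differences ran from -0.75 ± 0.62 for Nkx6-2 to 0.39 ± 0.39 for Sox10.

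Across all 8 tumour groups at once, an F-test of limma's fit asked which members varied with the form carried. Myrf (F = 5.13, limma adjusted p = 0.0237) and Nkx6-2 (F = 4.19, 0.0412) passed, beside 10.3% of all tested genes. The other 6 members had adjusted p of 0.300 for Zfp488 to 0.615 for Sox8. Leaving out A289V library 1 or 2 ended the limma call of Myrf (adjusted p = 0.0619 and 0.0647), and Nkx6-2 was lost in 15 of 28 removals of a single tumour (up to 0.0967). Without both A289V libraries 2 of all tested genes passed, against 1633 with them, and Myrf was at F = 4.85 (limma adjusted p = 0.147). With the neuron mean as a covariate, Myrf had F = 6.99 (limma adjusted p = 0.0856) and Nkx6-2 4.11 (0.240).

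How the members varied together was measured over the 28 tumours as Pearson's r of log2(RPM + 1), with permutation p-values adjusted over the 28 pairs. Olig1 and Olig2 formed the closest pair (r = 0.823, Spearman's rho = 0.629, permutation adjusted p = 9.33e-05 and 0.00188), and Nkx2-2 with Zfp488 came next (r = 0.793, rho = 0.685, permutation adjusted p = 9.33e-05 and 0.00112). Both kept a positive r in each range of library numbers, 0.436 to 0.894 for the first and 0.671 to 0.803 for the second. With the group means removed they were 0.856 and 0.822. In all, 19 of 28 pairs passed by r and 21 by rho, every r among them positive, and 11 of the 19 were positive in all 3 ranges. The smallest p the permutations can give is 1e-05. How often pairs of other genes pass over these tumours was not computed, so these counts are descriptions.

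Myrf passed with fewer of the other members than any of them did. It passed by r with Nkx6-2 alone (r = 0.439, rho = 0.522, permutation adjusted p = 0.0287 and 0.0113), and that r was 0.216 below 20, 0.0642 from 20 to 37 and 0.864 above 37, and -0.13 with group means removed. By rho it also passed with Nkx2-2 (rho = 0.424, permutation adjusted p = 0.0392). By r, Nkx2-2 (0.392) and Olig1 (0.390) narrowly missed with Myrf, each at a permutation adjusted p of 0.0536. With Olig2 the r was 0.0803 (rho = -0.02), with Sox10 0.0986 (rho = 0.162) and with Sox8 0.0301 (rho = 0.00547), each far from the threshold. Sox10 and Sox8, the SoxE relatives, did not vary together either (r = 0.145, rho = 0.116, permutation adjusted p = 0.520 and 0.597). Nkx6-2 missed by r with Olig2 (0.332, permutation adjusted p = 0.105) and with Sox10 (0.348, 0.0882).

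**Figure D4:**
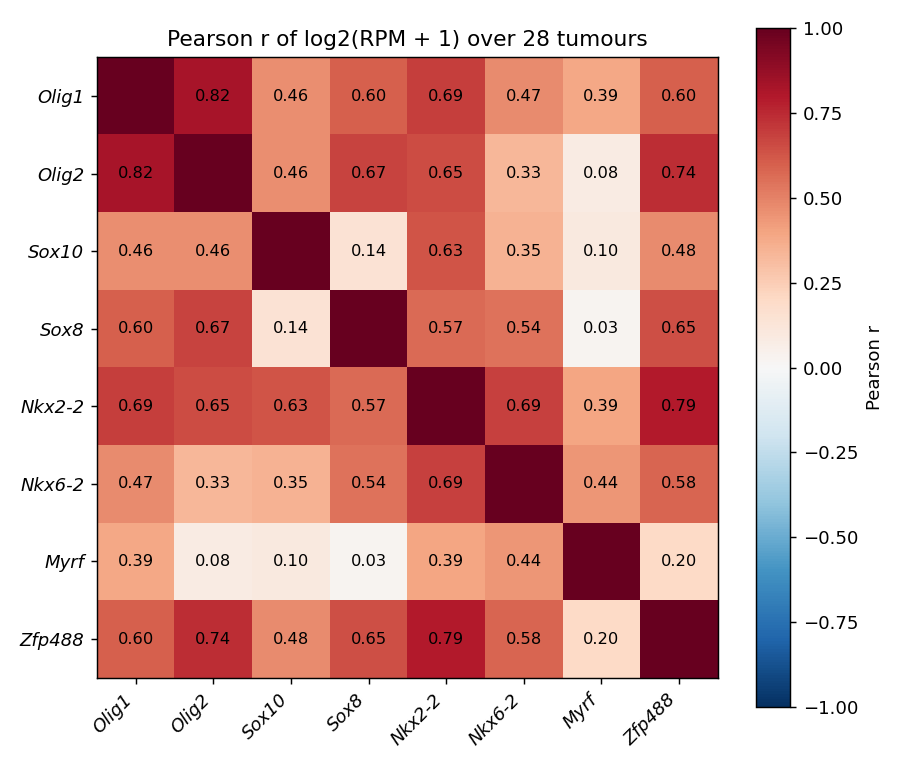
Pearson's r between the log2(RPM + 1) of each pair of the 8 genes over the 28 tumours, coloured from blue (negative) through white to red (positive) with the value in each cell. Olig1 with Olig2 is highest at 0.823, and the row of Myrf is palest, down to 0.0301 with Sox8.

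The genes most like each member were searched among the 12084 tested genes averaging 5 RPM or more in the tumours, as a description over the same 28 tumours, which share libraries and depth. Those most like Myrf were Mag (r = 0.903), the axon-contact protein gene Nfasc (0.898), Ugt8a (0.891), Enpp6 (0.889), an enzyme of newly formed oligodendrocytes, and Tmem88b (0.872). Mag ranged from 7.63 RPM in mCherry library 2 to 830 RPM in A289I library 4, and was 417 and 412 RPM in cortex. Bcas1, a marker of newly forming oligodendrocytes, led for both Zfp488 (0.822) and Nkx2-2 (0.802). Olig2 was most like the neural progenitor factors Sox3 (0.810) and Gsx1 (0.785), and Sox10 like Rbpjl (0.809), Sh3tc2 (0.804) and Kif7 (0.803), and the glial connexin gene Gjc3 (0.763). Olig1 was nearest to Cryab (0.736), Prkcq (0.706), Cacng4 (0.671) and Gpr17 (0.667), Sox8 to Sh3bp4 (0.849) and Fam222a (0.825), and Nkx6-2 to Ddc (0.795), Pdcd4 (0.769) and Bmp4 (0.743).

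**Figure D5:**
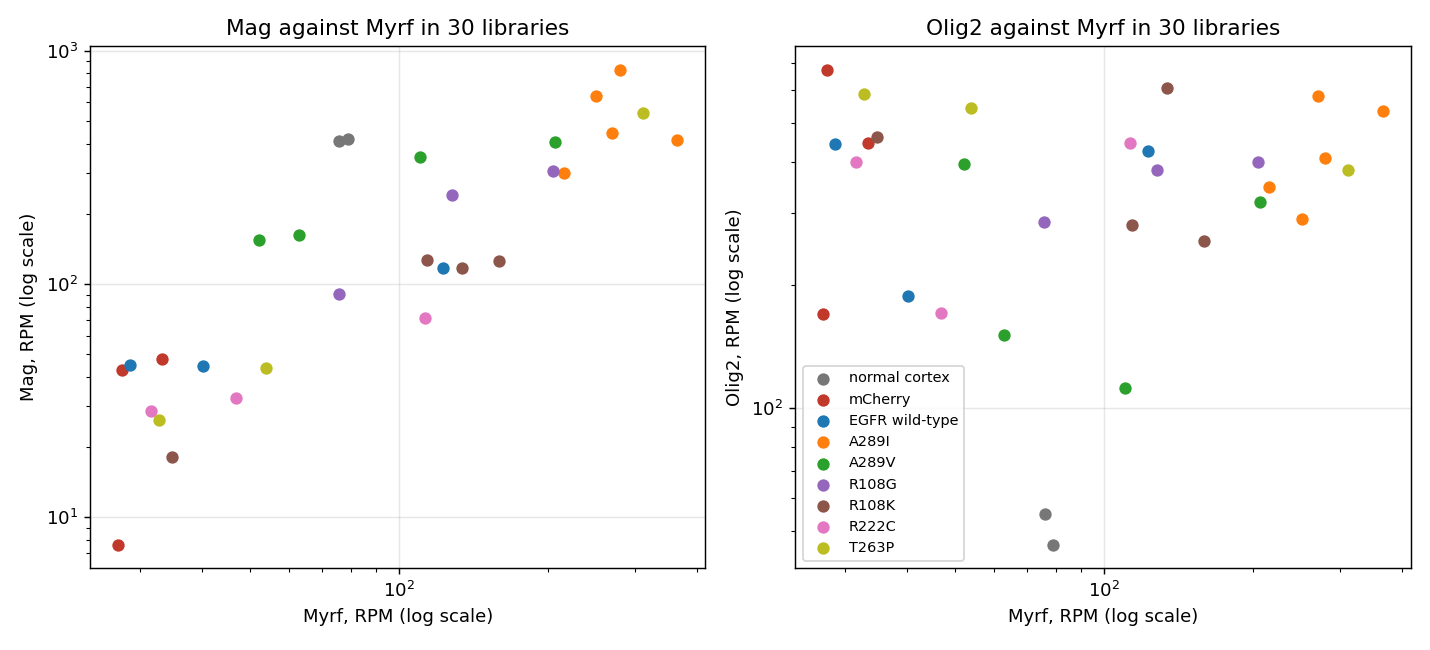
Level of Mag (left) and of Olig2 (right), both in RPM on a log axis (vertical), against the level of Myrf in RPM on a log axis (horizontal) in the 30 libraries, coloured by group. Mag rises with Myrf across the tumours (r = 0.903), while Olig2 does not follow it (r = 0.0803), and both cortex libraries, at 46.3 and 55.0 RPM, lie below every tumour for Olig2, the lowest of which is at 112 RPM.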

How the data were processed

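Bulk polyadenylated RNA was sequenced from 30 samples. Per the submitters' processing notes, FastQC, STAR 2.5.0a, DESeq2 1.20.0 and the build mm10 were used; their roles, and whether reads were counted by strand, are not given in the sources used here. The signal values deposited by the authors are named RPM, but do not sum to the same total in every library, and at least 99.996% of values are whole reads (within 0.05 read) divided by 1 factor per library. They were divided by 10.26 to reach the RPM scale. The test planned for RPM was kept.

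limma 3.58.1 (R 4.3.3) was fitted to log2(RPM + 1) of 15824 genes with 9 group means, a mean-variance trend and robust variances, two-sided, with Benjamini-Hochberg adjustment over all genes of a comparison and a threshold of 0.05. Fold differences are on the log2(RPM + 1) scale, which understates changes of low genes. edgeR 4.0.16 and DESeq2 1.42.0 on the recovered reads were alternatives. Correlations used 100000 permutations (scipy 1.17.1). Scripts were tested on simulated data. No 2 libraries of the same group agreed within sampling noise (smallest chi-square per degree of freedom 4.42).

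Up to 3 passing genes of smallest p were named per list and comparison (some are not reported here), and the 5 genes of highest r per member. Members and lists were chosen with earlier results of these data known. Predicted loci were passed over among the like genes. RefSeq promoters (GRCm38.p6) matched 5 of 8 members; gene positions are from GENCODE M21.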

Additional observations from a re-analysis of the deposited data

Results flagged for a closer look

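In 3 of 24 sets, each 1 member in 1 group of 4 or 5 libraries, 1 library lay far from the rest by Dixon's test. For independent, normally distributed values, chance alone would give this in about 1 in 20 sets. The sets share libraries and the test used RPM without logs, so that rate is a rough guide. Sox10 in R108K library 2 was 177 RPM against a group median of 613 RPM, and its gap to the next library was 0.847 of the group's range. Sox8 in A289V library 4 was 360.1 RPM against a group median of 86.2 RPM, with a gap of 0.913 of the range. Zfp488 in A289I library 1 was 81.2 RPM against a group median of 49.7 RPM, with a gap of 0.825 of the range.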

How the results depend on the processing

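Of 483 counts of members or of pairs passing, recomputed under the alternatives, 441 stayed within 1.5 times of the count reported and 42 moved. A count of 0 that remained 0 was taken as unchanged. The counts of pairs were 17 to 22 against 19 in the main test, so all that moved were counts of members. Why they moved was not tested. For A289I against mCherry the count of 1 became 0 with edgeR (1 of all genes passing) and with terms for 2 or 3 ranges of library numbers (16 each). It became 2 with DESeq2 (350 of all genes), with only the groups compared (42) and with library weights (325), and 0 to 1 with a library left out. For A289I against EGFR wild-type the count of 0 became 1 with DESeq2 (331 of all genes), 2 with library weights (456) and 0 to 1 with a library left out. DESeq2 gave 1 in place of 0 for the mean of the receptor groups (102 of all genes), A289V (1729) and R108K (205) against mCherry. Library weights gave 1 for A289V against mCherry, beside 3101 of all genes. They gave 4 in place of 0 for A289I against A289V, beside 3241 of all genes. For the mean of the variants against EGFR wild-type, leaving out a library gave 0 to 1. Among the 8 tumour groups the count of 2, beside 1633 of all genes, became 1 with a pseudocount of 0.1 RPM, no filter, only the groups compared or a term for 3 ranges (1083 to 1348 of all genes). It became 4 with library weights, where 5876 of all genes passed, and 0 to 2 with a library left out. It became 0 with a term for 2 ranges (1191 of all genes), with the neuron mean as covariate (5) or without A289V libraries 1 and 2 (2). The last setting was chosen after seeing the data.

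Against cortex the counts of 6 and 5 stayed within 1.5 times. Signs turned for Nkx2-2, A289I against EGFR wild-type, at -0.66 and -0.43 with terms for 2 and 3 ranges, and for Olig2, A289I against A289V, at -0.33 with a term for 2 ranges. Of 2993 recomputed differences that had not passed, 264 had the other sign and 0 of those passed. The means over groups and the test among groups were not run within 1 range. No paired analysis was possible because the replicate numbers follow accession order and pair no samples.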

Other observations

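Egfr as listed, whose level spanned 17.5 to 2790 RPM in the 28 tumours, was set against each member. The lowest value belongs to a library labelled R108G, and the mCherry tumours had 22.1 to 35.4 RPM. By Pearson's r, 0 of 8 members passed a permutation test adjusted over the 8. Myrf was highest (r = 0.378, permutation p = 0.0468, adjusted 0.375; rho = 0.467, permutation adjusted p = 0.1). Without the 2 tumours farthest from the median of Egfr the Myrf r was 0.681, and in the ranges of library numbers it was 0.893, -0.0043 and 0.599. In the 25 receptor tumours alone it was 0.165.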
